A study of Homo sapiens with 6 samples.

Results

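H1299 is a non-small cell lung cancer (NSCLC) cell line, and the question was which genes set its RNA apart from that of 2 other NSCLC cell lines, H460 and A549, with or without knockdown of the nuclear long noncoding RNA MALAT1. The H1299 group holds 2 of the 6 libraries, chosen by cell line label: H1299-cont, labelled as a tumor line with no treatment, and H1299-siMALAT1, labelled as a MALAT1 knockdown by transfection of siMALAT1. The comparison group holds the other 4, a control and a siMALAT1 library of H460 and of A549. Each line is a single established line and each combination of line and treatment a single library, so the 2 H1299 libraries share 1 line, 1 set of alleles and 1 history, and the comparison is of 1 line with 2 lines. p-values measure only the spread between these libraries. Total RNA without ribosomal RNA was sequenced, and the H1299 libraries held 66549197 and 60870796 reads on genes, against 42506818 to 68515992 in the others.

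H1299 is widely used as a line without p53, the transcription factor that answers DNA damage by inducing genes of cell cycle arrest and cell death, whereas H460 and A549 are known to keep it. H460 and A549 are also known for altered KEAP1, the protein that marks the transcription factor NRF2 for degradation, and for loss of CDKN2A. NRF2 drives genes of glutathione and thioredoxin metabolism, NADPH supply and drug metabolism by binding antioxidant response elements. Cancer-testis genes, which are largely silent outside the germ line, are known to be expressed in many lung tumors.

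The treatment labels were checked by the targeted RNA, which cannot check the cell line labels. The lack of p53 in H1299 was not analysed here. MALAT1 fell from 407551 to 47935 reads in H1299 between its control and si-MALAT1 libraries, in the direction of the labels, and the other lines moved the same way (231045 to 43858 reads in H460 and 93747 to 14447 in A549).

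H1299 was the line farthest from the others, whatever the siRNA. Over 21771 genes that passed a filter on low counts, the H1299 control and si-MALAT1 libraries lay 0.675 log2 units apart (root mean square of differences in log2 CPM, the read count over the TMM-scaled library size, by which a gene is compared between libraries and not with other genes). Each lay 2.47 to 2.57 from the libraries of H460 and A549, which lay 2.13 to 2.19 from each other. The first dimension of multidimensional scaling placed both H1299 libraries on one side and the 4 others on the opposite side, and held 60.6% of the variance. The correlation of log2 CPM across genes was 0.983 within H1299 and 0.768 to 0.783 between H1299 and the others, genes not being independent replicates.

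**Figure D1:**
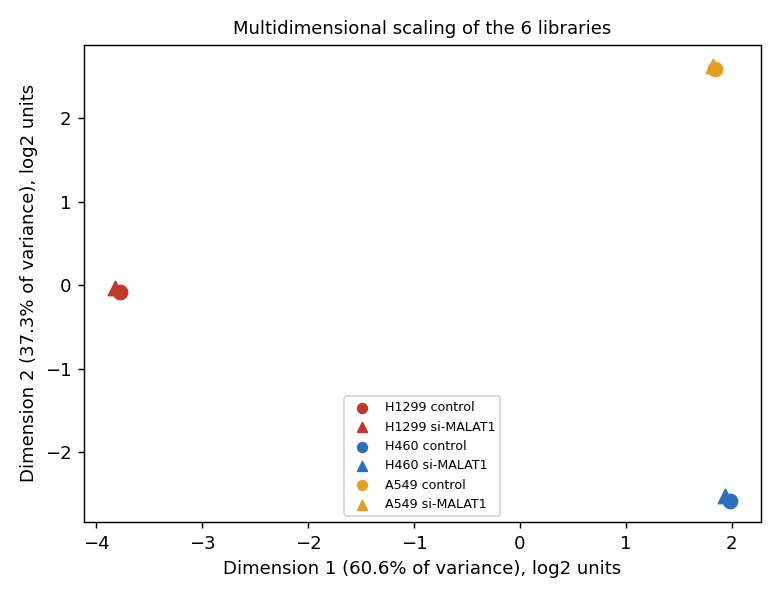
Multidimensional scaling of the 6 libraries on log2 CPM of the 2000 most variable genes, with dimension 1 and dimension 2 in log2 units, colour for the cell line and symbol for the treatment. The 2 H1299 libraries sit at −3.77 and −3.82 on dimension 1, and the 4 others between 1.83 and 1.98.

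In the test of the 2 H1299 libraries against the 4 others with treatment as a covariate (edgeR's quasi-likelihood test, adjusted p under 0.05), 923 genes were higher and 925 lower in H1299, 4.24% and 4.25% of the genes tested. The median log2 difference was 2.003 in size among these genes and −0.05 over all genes tested. Both H1299 libraries lay above the 4 others for 28.1% of the genes tested and below them for 22.1%. The same fit with H460 or A549 in the place of H1299 called 105 higher and 43 lower genes for H460, and 0 in each direction for A549 (edgeR, 3170 at an unadjusted p under 0.05). The difference between H460 and A549 is part of the spread in this test, on 3 residual degrees of freedom, and leaving out any 1 of the 6 libraries left 0 genes called in each direction (edgeR, 2725 to 5900 genes at an unadjusted p under 0.05), as did treating the line as the unit of replication. Every adjusted p given for a single gene comes from the fit with all 6 libraries and passed 0.05 in none of those fits. In the fit with a term for each line, 3509 genes were higher in H1299 than in both H460 and A549 and 3088 lower than in both, 16.1% and 14.2% of the genes tested, and these included all 1848 genes called in the first test.

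The control libraries alone were compared with 1 library a line and no test. The H1299 control lay at least 1 log2 unit above both other controls for 3231 genes and at least 1 below both for 2406, 14.8% and 11.1% of the genes tested. Of the 1848 genes called with all libraries, 1519 (82.2%) met that rule in the same direction in the controls and 1586 (85.82%) in the si-MALAT1 libraries. The genes were called from these same libraries, so this overlap follows in large part from the choice. The mean differences of H1299 had a correlation across genes of 0.934 (Pearson) and 0.881 (Spearman) between the control and the si-MALAT1 libraries, which share no library. No gene passed the test of an H1299 difference that depends on treatment (0 called by edgeR, with 128 at an unadjusted p under 0.05, and 0 by DESeq2), a test with 2 residual degrees of freedom.

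Of the 18 gene lists described here, chosen with earlier results known, the NRF2 targets held the most genes lower in H1299. Promoters from RefSeq (GRCh38.p14, 250 bases before to 50 after each gene's start) were matched for 23 of the 34 targets, and 7 of the 23 (30.4%) held the core of the antioxidant response element, TGACNNNGC, on either strand, against 13.4% of all 27305 promoters. The core was in 5 of the 18 matched targets that were lower in H1299 (GCLM, TXNRD1, PGD, ME1 and PIR) and in GPX2 and CBR1, which did not pass. The promoters of 4 of them are shown 5′ to 3′ along the gene as examples of lower targets that hold the core (capitals): GCLM at chr1:93909381-93909680 (minus strand), TXNRD1 at chr12:104286782-104287081 (plus strand), ME1 at chr6:83431002-83431301 (minus strand) and PIR at chrX:15493284-15493583 (minus strand). A match is a description of letters and not a bound site.
GCLM: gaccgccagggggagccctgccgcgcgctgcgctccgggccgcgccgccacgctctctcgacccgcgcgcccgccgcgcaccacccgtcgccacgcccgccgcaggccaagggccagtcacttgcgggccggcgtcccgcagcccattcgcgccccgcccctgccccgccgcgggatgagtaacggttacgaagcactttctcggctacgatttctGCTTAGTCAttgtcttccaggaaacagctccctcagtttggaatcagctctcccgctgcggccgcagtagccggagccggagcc
TXNRD1: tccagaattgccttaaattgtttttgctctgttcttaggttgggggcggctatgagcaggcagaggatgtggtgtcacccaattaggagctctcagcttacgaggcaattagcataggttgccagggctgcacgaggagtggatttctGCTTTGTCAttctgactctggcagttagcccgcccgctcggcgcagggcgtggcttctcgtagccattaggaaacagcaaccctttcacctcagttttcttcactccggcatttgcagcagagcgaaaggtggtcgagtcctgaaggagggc
ME1: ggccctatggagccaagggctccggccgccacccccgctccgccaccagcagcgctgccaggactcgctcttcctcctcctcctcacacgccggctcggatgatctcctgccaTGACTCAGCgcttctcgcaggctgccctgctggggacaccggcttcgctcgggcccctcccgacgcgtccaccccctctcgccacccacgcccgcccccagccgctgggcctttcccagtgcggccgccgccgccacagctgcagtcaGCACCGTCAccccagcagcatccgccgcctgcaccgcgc
PIR: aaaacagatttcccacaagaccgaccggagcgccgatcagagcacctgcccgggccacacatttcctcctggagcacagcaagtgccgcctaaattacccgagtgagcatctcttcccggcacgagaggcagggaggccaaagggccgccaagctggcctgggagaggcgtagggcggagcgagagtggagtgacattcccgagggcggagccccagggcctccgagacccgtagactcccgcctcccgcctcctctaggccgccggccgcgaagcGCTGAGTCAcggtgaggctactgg

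Of the 34 NRF2 targets, all tested, 26 were lower in H1299, 0 were higher and 8 did not pass, beside a background of 4.25% lower. Both H1299 libraries were below the 4 others for 30 of the 34, beside 22.1% of all genes tested, and 31 of the 34 were lower than in each other line, beside 14.2%. The median log2 difference was −3.15, and −3.20 in the controls alone, against −0.05 over all genes tested. Summed over the list, H1299 had 2477 and 2649 CPM, H460 20420 to 21370 and A549 24820 to 30450.

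Within the list, genes of NADPH supply, glutathione and thioredoxin were lower by a smaller factor than the aldo-keto reductases. NQO1, a quinone reductase, was at 241 and 205 CPM in the control and si-MALAT1 libraries of H1299, 2152 and 2185 in H460, and 2612 and 1808 in A549 (log2 difference −3.29 ± 0.24 (SE), adjusted p = 0.0162). TXNRD1, cytosolic thioredoxin reductase, was at 371 and 326 CPM in H1299, 1939 and 1908 in H460, and 1996 and 1469 in A549 (−2.39 ± 0.22, adjusted p = 0.0187). GCLM, the modifier subunit of the enzyme that starts glutathione synthesis, was at 23.9 and 26.2 CPM in H1299 and 100 to 166 in the others (−2.24 ± 0.28, adjusted p = 0.0254). For all 3 genes both H1299 libraries lay well below the lowest of the 4 others. ME1, malic enzyme, was at 7.84 and 9.71 CPM in H1299 against 78.4 to 128 (−3.59 ± 0.34, adjusted p = 0.0188). PIR, an iron-binding nuclear protein, was at 21.0 CPM in both H1299 libraries against 112 to 153. SLC7A11, the cystine transporter, differed within H1299 as well, at 35.1 CPM in the control and 9.60 in the si-MALAT1 library, against 278 to 1143 in the others (adjusted p = 0.0454).

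The aldo-keto reductases and other enzymes of drug metabolism were at low levels in H1299. AKR1B10, which reduces retinal and other aldehydes, had 23 and 20 reads in H1299, 85180 and 74343 in H460, and 188600 and 148925 in A549, a level 8177-fold lower in H1299 (adjusted p = 0.0179). AKR1C3, which reduces steroid and prostaglandin ketones, had 15 and 24 reads in H1299 and 33391 to 85712 in the others, 4333-fold lower (adjusted p = 0.0196). ALDH3A1, an aldehyde dehydrogenase, had 0 and 18 reads in H1299 against 40444 to 47313 (6349-fold lower, adjusted p = 0.0315). The last value rests on the si-MALAT1 library for every H1299 read. CYP4F11, a fatty acid hydroxylase of the cytochrome P450 family, had no read in H1299 and 2635 to 9573 in the others, at least 2273-fold lower when H1299 is set at a floor of 3 reads a library (adjusted p = 0.0184). The AKR1C genes are near-identical paralogs among which the authors' counting could split reads, and AKR1C1 (341-fold lower) and AKR1C2 (506-fold lower) passed too. ABCC2, an export pump for drug conjugates, was 276-fold lower (adjusted p = 0.0134).

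The 8 NRF2 targets that did not pass were GCLC, HMOX1, ABCC3, GPX2, CBR1, CBR3, EPHX1 and CYP4F3. GCLC, the catalytic partner of GCLM, was at 27.2 and 29.3 CPM in H1299 and 79.9 to 186 in the others (adjusted p = 0.0563). HMOX1, heme oxygenase, was at 7.54 and 15.2 CPM in H1299, overlapping H460 (6.59 and 13.1) and below A549 (79.2 and 85.5). CBR3, a carbonyl reductase, overlapped the other lines at 10.3 and 8.32 CPM against 7.56 to 16.1. The regulators of the pathway did not pass the test. KEAP1 was at 57.6 and 60.6 CPM in H1299 and 50.3 to 66.3 in the others (log2 difference 0.04 ± 0.14, adjusted p = 0.853), and NFE2L2, which encodes NRF2, at 68.8 and 73.3 against 83.9 to 129 (−0.47 ± 0.22, adjusted p = 0.216).

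**Figure D2:**
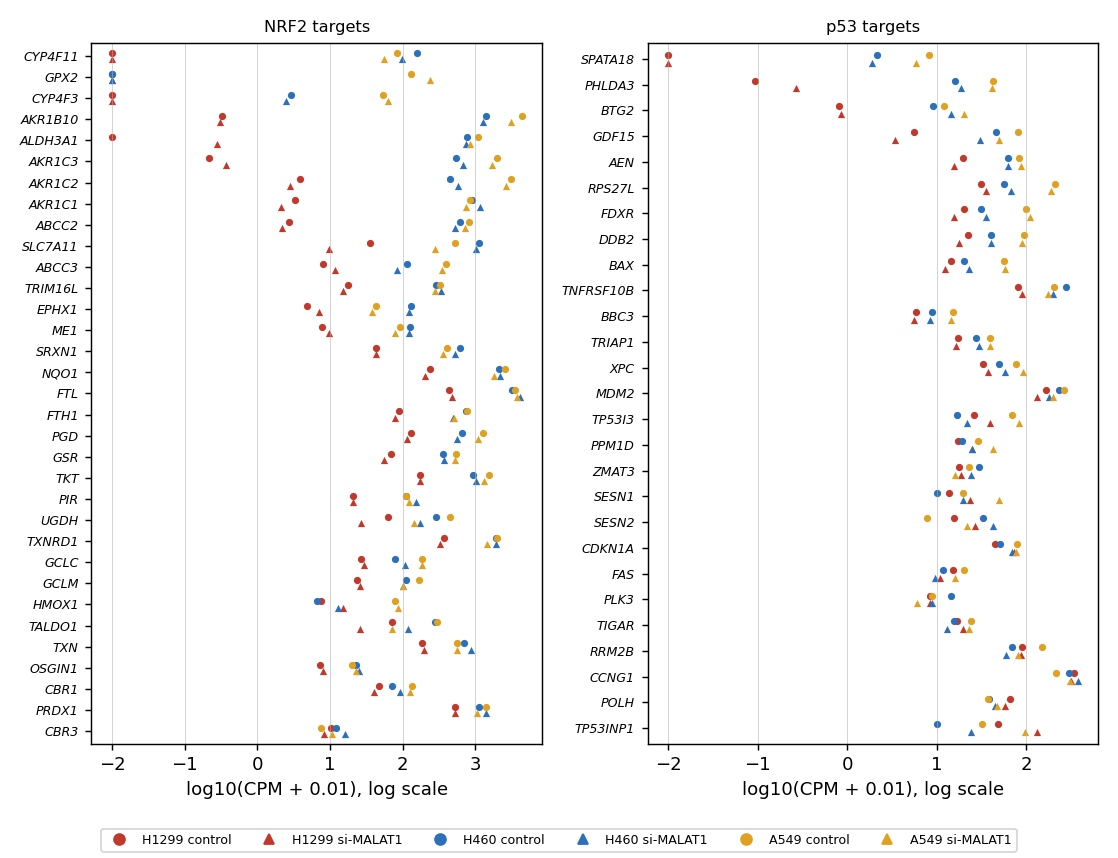
CPM of NRF2 targets (left, all but 1 of the list) and the 27 p53 targets (right) in the 6 libraries, on a log10(CPM + 0.01) axis, 1 point a library, with genes ordered by the log2 difference of H1299. Points at −2 are libraries with no read and can overlie each other. Both H1299 points lie left of the 4 others for most NRF2 targets and for 14 of the 27 p53 targets.

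Of the p53 targets a smaller share than of the NRF2 targets was lower in H1299. Of 27 targets, all tested, 6 were lower, 0 higher and 21 did not pass by edgeR, beside a background of 4.25% lower. DESeq2 called 14 lower and 1 higher, beside 3835 lower and 3291 higher of all 21771 genes tested. Both H1299 libraries were below the 4 others for 14 of the 27, beside 22.1% of all genes, and 14 were lower than in each other line and 2 higher, beside 14.2% and 16.1%. The median log2 difference was −0.55, and −0.58 in the controls. Promoters were matched for 23 of the 27, of which 4 (17.4%) held a p53 half-site on either strand, against 6.66% of all promoters. AEN, an apoptosis-enhancing nuclease that was lower in H1299, and DDB2, a DNA damage recognition protein that did not pass, are shown because AEN held 1 half-site and DDB2 2 with 1 base between them (capitals): AEN at chr15:88621090-88621389 (plus strand) and DDB2 at chr11:47214724-47215023 (plus strand).
AEN: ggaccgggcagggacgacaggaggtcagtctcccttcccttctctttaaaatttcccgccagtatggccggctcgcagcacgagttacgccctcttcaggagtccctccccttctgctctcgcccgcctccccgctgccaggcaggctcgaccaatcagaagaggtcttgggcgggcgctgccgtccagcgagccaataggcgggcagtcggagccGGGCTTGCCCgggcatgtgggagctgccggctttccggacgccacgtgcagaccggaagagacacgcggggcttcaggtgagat
DDB2: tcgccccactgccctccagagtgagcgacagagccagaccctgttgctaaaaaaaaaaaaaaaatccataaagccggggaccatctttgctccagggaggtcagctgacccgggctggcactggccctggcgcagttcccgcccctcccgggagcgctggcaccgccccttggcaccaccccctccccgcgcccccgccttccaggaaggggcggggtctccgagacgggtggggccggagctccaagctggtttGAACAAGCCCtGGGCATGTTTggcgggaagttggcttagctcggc

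PHLDA3, an inhibitor of AKT signaling, had 6 and 17 reads in H1299, 986 and 1086 in H460, and 1817 and 2018 in A549 (log2 difference −7.54 ± 0.95, adjusted p = 0.0265). SPATA18, a regulator of mitochondrial quality, had no read in H1299 and 111 to 349 in the others, at least 104-fold lower (adjusted p = 0.0455). Both H1299 libraries were far below the other 4 for these genes. BTG2, an antiproliferative factor, was at 0.790 and 0.845 CPM in H1299 and 9.19 to 19.99 in the others (−4.03 ± 0.38, adjusted p = 0.0188). GDF15, a secreted stress cytokine, was at 5.57 and 3.44 CPM against 30.7 to 81.5 (−3.54 ± 0.40, adjusted p = 0.0228), and AEN at 19.4 and 15.5 against 61.7 to 87.2 (−2.08 ± 0.26, adjusted p = 0.0263). TNFRSF10B, a death receptor for TRAIL, was at 80.0 and 90.2 CPM against 174 to 279 (−1.32 ± 0.24, adjusted p = 0.0465).

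The classical targets CDKN1A and MDM2 did not pass. CDKN1A, which encodes the cell cycle inhibitor p21, was at 44.3 and 72.3 CPM in H1299, within the range of the others (50.7 to 78.3) in the si-MALAT1 library and below it in the control (log2 difference −0.27 ± 0.26, adjusted p = 0.503). MDM2, the ubiquitin ligase of p53, was at 164 and 132 CPM in H1299 and 179 to 261 in the others, with no overlap (−0.55 ± 0.15, adjusted p = 0.0898). DDB2 was at 22.04 and 17.7 CPM against 40.6 and 40.8 in H460 and 95.1 and 90.5 in A549, and the gap between H460 and A549 was larger than that between H1299 and H460 (adjusted p = 0.109). TP53INP1, a p53-induced nuclear protein, was not lower in H1299, at 48.9 and 132 CPM against 10.1 to 97.8 (adjusted p = 0.315).

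The CDKN2A locus on chromosome 9 carried reads in H1299 alone. CDKN2A (chr9:21967752-21995324), which encodes the cell cycle inhibitors p16 and p14ARF, had 2938 and 2679 reads in H1299 and 0 in each of the 4 other libraries, at least 697.6-fold higher (adjusted p = 0.0428). CDKN2B (chr9:22002903-22009313), which encodes p15, had 3215 and 6416 reads in H1299 and 0 in the others, at least 1216-fold higher (adjusted p = 0.0391). Its antisense RNA CDKN2B-AS1 had 540 and 434 reads in H1299 and 0 in the others (adjusted p = 0.0688), and whether the counting used strand is not given in the sources used here. MTAP, the neighbouring methionine salvage gene, was not particular to H1299, at 6290 and 3680 reads in H1299, 6182 and 4273 in H460, and 631 and 492 in A549. Coordinates are those of the deposited GRCh38 annotation.

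Some cancer-testis genes were read in H1299 and not in the other lines. Of 34 listed genes 33 were in the table and 19 passed the filter, which a gene read in H1299 alone can pass through H1299. Of these 19, edgeR called 8 higher and 0 lower, and DESeq2 13 higher and 1 lower. Of the 19, 16 lay above all other libraries and were higher than in each other line. The filter favours such counts, so they are a description and are not read against the shares over all genes. The median log2 difference was 11.4 as fitted and 7.83 with groups of no read set at the floor. Summed over the list, H1299 had 1419 and 1797 CPM and the others 133.8 to 167.2. Of the 33 genes in the table, 15 had no read in H1299, and 10 of these had none in any library.

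MAGEA4, a MAGE family antigen on chromosome X, had 36417 reads in the control and 11785 in the si-MALAT1 library of H1299 and 0 in each other library, at least 5867-fold higher (adjusted p = 0.0332). MAGEA10 and MAGEA12 were likewise read in H1299 alone, with 2612 to 4504 reads a library. PASD1, a testis antigen that inhibits the circadian clock, had 4581 and 4336 reads in H1299 and 0 elsewhere (at least 1108-fold higher, adjusted p = 0.0393), and CTAG1B, which encodes NY-ESO-1, 4137 and 2339. All 12 GAGE genes of the table were higher in H1299, with 2211 to 14808 reads each in the H1299 libraries and at most 4 in any other library. They are near-identical copies among which reads cannot be placed with certainty, so GAGE12B, GAGE12C, GAGE12D, GAGE12E, GAGE12G, GAGE12J and GAGE2A, all among the 12 coding genes with the widest gap, are best read as 1 signal. GAGE12J had 7483 and 6382 reads in H1299 and none elsewhere. The group was not uniform: MAGEA1 was at 61.9 and 54.9 CPM in H1299 and 61.3 and 81.9 in H460, and MAGEB2 had no read in H1299 and 35.8 and 47.9 CPM in H460.

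The remaining coding genes outside the X-linked families completed the 12 with the widest gap above the other lines. TDRD9, an RNA helicase of the germline piRNA pathway (chromosome 14), had 10957 and 11754 reads in H1299 and 0 in the others, at least 2831-fold higher (adjusted p = 0.0339). TDRD12, another helicase of that pathway (chromosome 19), had 40186 and 37797 reads in H1299 and 0 to 10 in the others, 8532-fold higher (adjusted p = 0.0216). MME, the cell surface peptidase neprilysin, had 9672 and 6871 reads in H1299 and none elsewhere, at least 2044-fold higher (adjusted p = 0.0357).

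**Figure D3:**
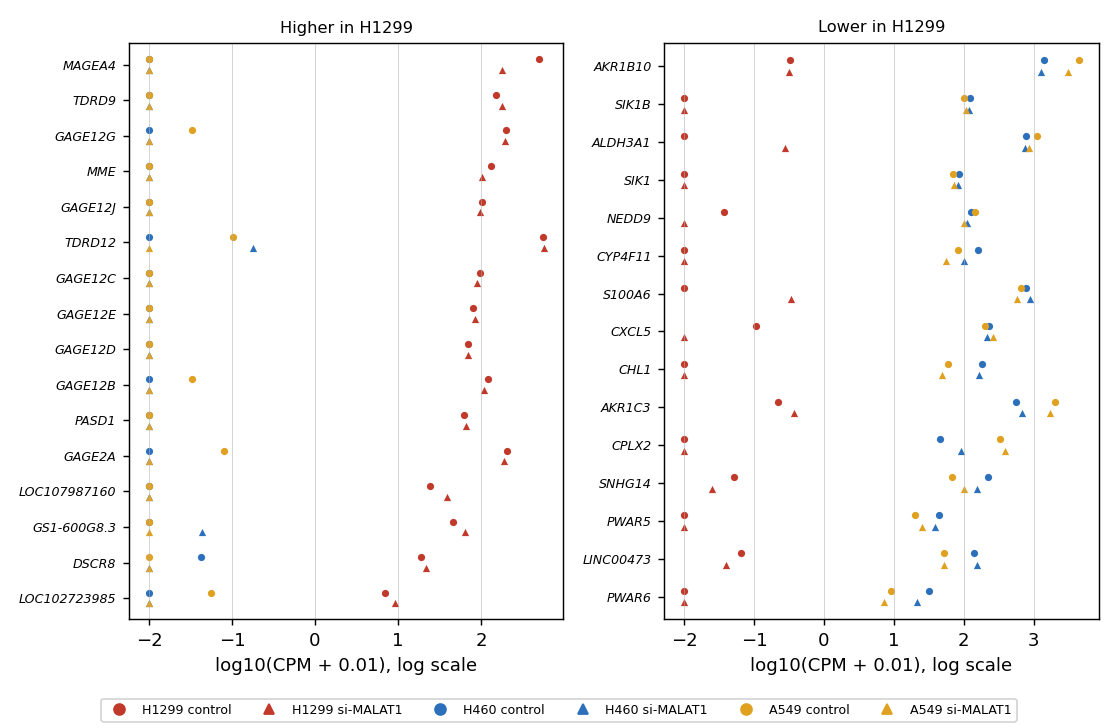
CPM of the genes with the widest gap between H1299 and the other lines (12 coding genes and 4 lncRNAs in each direction, with 1 lower coding gene not drawn), on a log10(CPM + 0.01) axis with 1 point a library. Points at −2 are libraries with no read and can overlie each other, and in both panels the H1299 points stand apart from all 4 others.

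The coding genes with the widest gap below the other lines were, beside the NRF2 targets AKR1B10, AKR1C3, ALDH3A1 and CYP4F11, genes of signaling, adhesion and secretion. SIK1, a salt-inducible kinase, had no read in H1299 and 2979 to 5188 in the others (at least 1781-fold lower, adjusted p = 0.0134), and its near-identical copy SIK1B behaved alike, with no read in H1299 and 4340 to 7569 elsewhere, so reads cannot be divided between them with certainty. NEDD9, a scaffold of focal adhesion signaling, had 2 and 0 reads in H1299 and 4803 to 7733 in the others, 8324-fold lower with an exact 95% interval of 2304 to 68740 that covers counting error alone. The genes were chosen for this gap, so that H1299 does not overlap the others follows from the choice. S100A6, a calcium-binding protein, had 0 and 22 reads in H1299 against 27839 to 51559 (4373-fold lower, adjusted p = 0.0330), all in the si-MALAT1 library. CHL1, a neural adhesion molecule, had no read in H1299 against 2322 to 11173 (at least 2630-fold lower), and CPLX2, complexin of the synaptic vesicle, none against 2747 to 18836 (at least 4927-fold lower, adjusted p = 0.0485). CXCL5, a neutrophil chemokine, had 7 and 0 reads against 8676 to 13986 (4660-fold lower, adjusted p = 0.0204).

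The lncRNA with the widest gap was SNHG14, at an imprinted locus. Fewer lncRNAs were called by edgeR than their share of genes tested: 5.42% of the genes higher in H1299 and 9.62% of those lower were lncRNAs, against 18.6% of those tested. The edgeR calls differ here from the rule given below for genes nearly silent on 1 side. By that rule lncRNAs were 108 of 278 genes read in H1299 alone and 22 of 96 not read in it. SNHG14, the host RNA of the SNORD116 small nucleolar RNAs on 15q11, had 3 and 1 reads in H1299, 13662 and 9066 in H460, and 2948 and 4828 in A549, 4837-fold lower (adjusted p = 0.0179). PWAR5 and PWAR6, further transcripts of the locus, had no read in H1299 against 850 to 2691 and 348 to 1913 in the others (at least 735.3-fold and 398.4-fold lower). LINC00473, a lncRNA induced by cyclic AMP signaling, had 4 and 2 reads in H1299 against 2206 to 8947 (2310-fold lower, adjusted p = 0.0196). Higher in H1299 were LOC107987160 (1760 and 2574 reads against none), GS1-600G8.3 (3304 and 4289 against 2 in all other libraries together), DSCR8 (1357 and 1463 against 2) and LOC102723985 (500 and 607 against 2).

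Some epithelial markers were lower in H1299, in a number that depended on the test. Of 32 markers 24 passed the filter, of which 4 were lower, 0 higher and 20 did not pass by edgeR, beside a background of 4.25% lower. DESeq2 called 12 lower, beside 3835 of all 21771 genes tested, and 11 lay below all other libraries, beside 22.1%. The list's median log2 difference was −2.54 as fitted, and −1.94 in the controls as a difference of log2 CPM, in which genes with few reads are shrunk. JUP, plakoglobin of the cell junctions, was at 6.12 and 10.3 CPM in H1299, 170 and 145 in H460, and 137 and 125 in A549 (log2 difference −4.16 ± 0.34, adjusted p = 0.0179). CLDN1, a tight junction claudin, PKP3, a desmosomal plakophilin, and EHF, an epithelial transcription factor with no read in H1299, were the other called markers. CDH1, E-cadherin, was near 0 in both H1299 and H460, with 2 and 12 reads in H1299 (0.0277 and 0.181 CPM) and 13 and 11 in H460 (0.213 and 0.188 CPM), against 4693 and 7373 reads in A549. KRT19 showed the reverse, at 0.291 and 0.257 CPM in H1299, 731 and 575 in H460, and 1.02 and 2.51 in A549. The E-box CACCTG bound by ZEB repressors was found on either strand in 9 of 14 matched promoters of the list (64.3%), against 20.6% of all promoters. The promoter of JUP at chr17:41785927-41786226 (minus strand), the only called marker among these 9, held 2 copies (capitals).
JUP: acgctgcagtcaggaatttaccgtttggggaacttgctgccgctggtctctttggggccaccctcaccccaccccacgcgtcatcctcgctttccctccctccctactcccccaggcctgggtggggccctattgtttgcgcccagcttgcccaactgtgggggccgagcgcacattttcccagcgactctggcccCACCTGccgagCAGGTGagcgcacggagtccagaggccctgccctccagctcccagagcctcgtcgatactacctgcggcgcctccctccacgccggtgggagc

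Mesenchymal markers were called in both directions in H1299. Of 33 markers 32 were tested. By edgeR 3 were higher, 3 lower and 26 did not pass, beside backgrounds of 4.24% and 4.25%. DESeq2 called 5 higher and 9 lower, beside 3291 higher and 3835 lower of all 21771 genes tested. The median log2 difference was 0.13. Both H1299 libraries lay above the 4 others for 11 markers and below them for 11, beside 28.1% and 22.1% of all genes. PRRX1, a mesenchymal transcription factor, had 1454 and 2971 reads in H1299 and 0 to 9 in the others (log2 difference 9.25 ± 1.35, adjusted p = 0.0327). COL6A2, a collagen VI chain, was at 143 and 169 CPM in H1299 against 11.99 to 23.5 (3.15 ± 0.34, adjusted p = 0.0216), and LOX, the collagen cross-linking oxidase, was higher too (adjusted p = 0.0385). COL5A1, a collagen V chain, was at 0.526 and 0.740 CPM in H1299 against 11.2 to 15.7 (−4.51 ± 0.38, adjusted p = 0.0179), and S100A4 and CALD1, of the cytoskeleton, were lower as well. VIM, the intermediate filament vimentin, was at 3150 and 3407 CPM in H1299, 1719 and 1454 in H460, and 769 and 853 in A549. The H1299 libraries were the highest of the 6 without passing the test (1.45 ± 0.41, adjusted p = 0.0963). ZEB1, an E-cadherin repressor, was at 45.0 and 49.6 CPM in H1299 against 15.3 to 34.5 (adjusted p = 0.186).

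**Figure D4:**
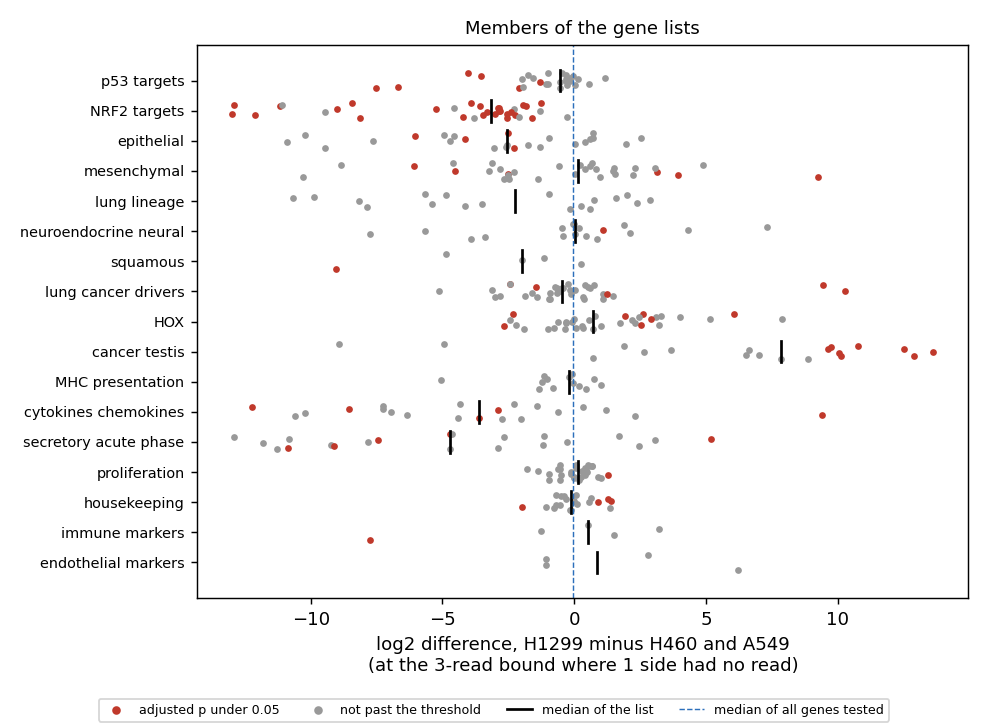
Log2 differences of H1299 from H460 and A549 for the tested members of 17 gene lists, 1 point a gene, with the median of each list as a bar and the median of all genes tested as a dashed line. Genes with no read on 1 side are set at the 3-read bound. The NRF2 targets lie left of the dashed line, and most cancer-testis genes right of it.

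Several chemokine and complement genes were lower in H1299. Of 21 tested cytokine and chemokine genes 4 were lower and 1 higher, beside backgrounds of 4.25% and 4.24%, and 12 lay below all other libraries, beside 22.1%. DESeq2 called 13 lower and 1 higher, beside 3835 lower and 3291 higher of all 21771 genes tested. The median log2 difference was −3.61. The genes called lower were CXCL5, CXCL3, CCL20 and CSF1. CCL20, a lymphocyte chemokine, had no read in H1299 and 477 to 1252 in the others (at least 369.4-fold lower, adjusted p = 0.0184). CCL28, a mucosal chemokine, went the other way, with 602 and 724 reads in H1299 and 0 to 4 elsewhere (adjusted p = 0.0371). CXCL8, a neutrophil chemokine, had 29 and 26 reads in H1299 against 30603 and 102547 in H460 and 1297 and 1815 in A549, and did not pass (adjusted p = 0.0941). Of 21 tested genes of secretion and the acute phase, 4 were lower and 1 was higher by edgeR. DESeq2 called 12 lower and 2 higher, and the background of each test was the same. C1S, a protease of the first complement component, was at 0.748 and 0.317 CPM in H1299 against 74.7 to 115 (−7.45 ± 0.58, adjusted p = 0.0174), and its partner C1R and the central component C3 were lower too. APOE, a lipid carrier, was at 71.5 and 71.1 CPM in H1299 against 0.788 to 3.36 (5.19 ± 0.72, adjusted p = 0.0301).

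Some listed drivers of lung cancer were higher or lower in H1299, in a number that depended on the test. Of 35 tested, edgeR called 3 higher and 2 lower, beside backgrounds of 4.24% and 4.25%. Both H1299 libraries lay above the 4 others for 9 and below them for 10, beside 28.1% and 22.1% of all genes. Against each other line 7 were higher and 9 lower, beside 16.1% and 14.2%. DESeq2 called 7 higher and 7 lower, beside 3291 and 3835 of all 21771 genes tested. Of the 36 listed, 2 had no read outside H1299, and such genes can pass the filter through H1299 alone. NRAS, a RAS GTPase, was at 160 and 290 CPM in H1299, 63.9 and 101 in H460, and 84.3 and 127 in A549 (log2 difference 1.23 ± 0.20, adjusted p = 0.0379). In each treatment the H1299 library was the highest of the 3 lines. EGFR was at 56.4 and 74.2 CPM in H1299 against 162 to 217 (−1.46 ± 0.24, adjusted p = 0.0383), and IGF1R, the receptor of insulin-like growth factor 1, at 31.2 and 51.5 against 189 to 235 (−2.42 ± 0.28, adjusted p = 0.0230). STK11, a kinase lost in many lung adenocarcinomas, was at 61.2 and 51.0 CPM in H1299 and 36.9 to 49.5 in the others and did not pass (adjusted p = 0.273).

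Some HOX genes, which specify position along the body axis, were higher or lower in H1299. Of 35 tested, beside backgrounds of 4.24% higher and 4.25% lower, HOXB3, HOXB4, HOXB7, HOXC4 and HOXC6 were higher in H1299, HOXA3 and HOXA13 lower, and 28 did not pass. HOXB4 was at 37.4 and 42.2 CPM in H1299 and 0.295 to 1.06 in the others (log2 difference 6.05 ± 0.55, adjusted p = 0.0185). HOXA13 was at 1.81 and 1.48 CPM in H1299 against 6.51 to 9.72 (−2.33 ± 0.35, adjusted p = 0.0339). For 18 of the 35 both H1299 libraries lay above the 4 others, and for 5 below them, beside 28.1% and 22.1% of all genes. In the fit with a term for each line 13 were higher than in both and 5 lower, beside 16.1% and 14.2%. The called HOX genes depended on scaling: with RLE size factors 4 were higher, with upper quartile scaling 8, and 2 were lower in both. DESeq2 called 12 higher and 5 lower, beside 3291 higher and 3835 lower of all 21771 genes tested.

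In the other lists edgeR called 0 to 4 genes. DESeq2 called 3291 higher and 3835 lower of all 21771 genes tested, and its list counts stand beside those. None of 18 tested lung lineage genes (surfactant, airway and endoderm factors) and none of 13 tested genes of MHC class I and II presentation passed by edgeR, whereas DESeq2 called 3 higher and 5 lower, and 1 higher, respectively. NKX2-1, the regulator of the lung epithelium, was at 0.388 and 0.453 CPM in H1299 and had no read in H460 or A549, so its transcript was at a low level in all 3 lines. TUBB3, neuronal tubulin, was the only one of 17 tested neuroendocrine and neural genes to pass by edgeR (1.08 ± 0.19, adjusted p = 0.0420), and DESeq2 called 2 higher and 4 lower. DSC3, a desmocollin with no read in H1299, was the only one of 5 tested squamous markers to pass by edgeR (adjusted p = 0.0416), and DESeq2 called 3 lower. FOXM1, a mitotic transcription factor, was the only one of 30 proliferation genes to pass by edgeR (1.28 ± 0.18, adjusted p = 0.0310), and DESeq2 called 4 higher and 4 lower. Among 20 housekeeping genes TBP, IPO8 and RAB7A were higher and TFRC, the transferrin receptor, was lower. These 3 of 20 higher and 1 of 20 lower genes stand beside backgrounds of 4.24% and 4.25%. Among markers of immune and endothelial cells, PTPRC, CD3E and CDH5 had no read in any library. Such markers were at 0 reads in all 6 libraries for 7 of 15 and 1 of 10 genes, and edgeR called CD14 alone, lower in H1299 with 3 reads in each library, whereas DESeq2 called 1 immune marker higher and 1 lower and 1 endothelial marker higher.

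The differences of H1299 were unevenly spread over the chromosomes. On chromosome 6, 161 of 1180 genes tested (13.6%) were higher in H1299, and on chromosome 19, 132 of 1338 (9.87%), against 4.24% over all chromosomes. On chromosome 10, 71 of 846 (8.39%) were lower and on chromosome 17, 91 of 1254 (7.26%), against 4.25%. The median log2 difference was 0.73 on chromosome 6, 0.65 on chromosome 19 and −0.61 on chromosome 10. Most windows of both chromosomes 6 and 19 had a median above 0. Negative stretches reached −0.62 on chromosome 6 and −0.315 on chromosome 19. The highest windows on chromosome 19 stood above a level that was raised over much of the chromosome. RNA per gene copy and the number of copies cannot be told apart in these data.

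**Figure D5:**
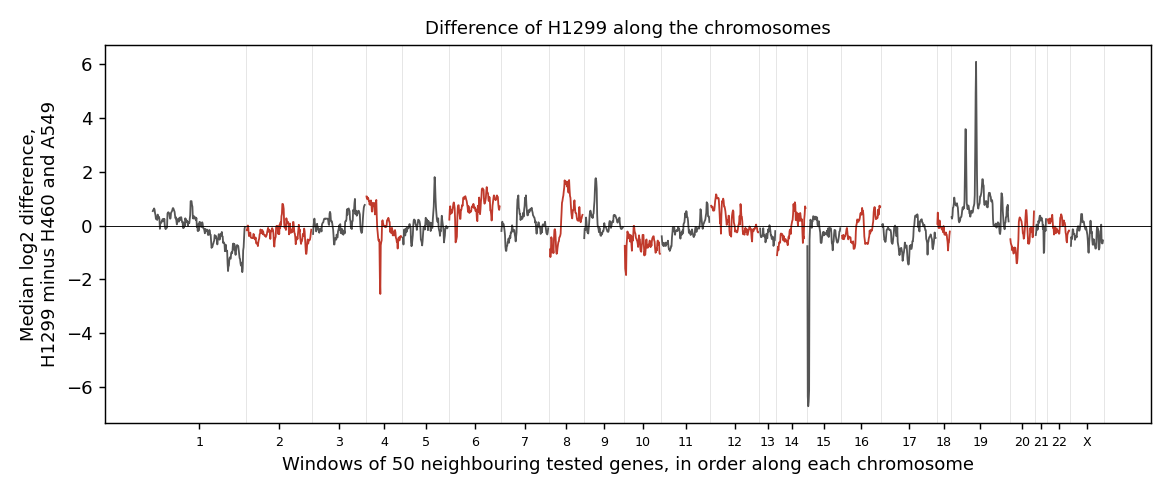
Median log2 difference of H1299 from H460 and A549 in 2069 overlapping windows of 50 neighbouring tested genes, in order along each chromosome (x axis, gene order) with chromosomes in alternating colours. Windows reach 6.08 and 3.58 at 2 places on chromosome 19 and −6.71 on chromosome 15, while the windows of chromosome 6 lie mostly above 0.

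The highest windows lay in clusters of zinc finger genes on chromosome 19 and the lowest over the imprinted locus of 15q11. The highest window (chr19:19756371-28727694) had a median of 6.08, and 6.14 in the controls, with 12 genes higher and 0 lower. A window at chr19:11346483-12633834 had a median of 3.58, with 15 higher and 0 lower. The lowest window (chr15:22494837-27541984) had a median of −6.71, and −2.80 in the controls, with 10 genes lower and 0 higher. It spans SNHG14 and the SNORD116 copies it hosts, so many of its values are not independent. Many genes of these windows had no read on 1 side, so that the size of a fitted median depends on the prior count. The control medians are differences of log2 CPM with a prior count of 2 and are not on the scale of the fitted ones. ZNF genes, most of which encode transcriptional repressors of the KRAB type, were counted after these values were seen. Of 245 tested on chromosome 19, 50 (20.4%) were higher in H1299 and 2 lower, with a median log2 difference of 1.17. Of 247 on other chromosomes 14 (5.67%) were higher and 6 lower, with a median of 0.23. Among those tested, 21 on chromosome 19 and 4 on other chromosomes had no read outside H1299 and passed the filter through H1299. The ZNF counts are therefore a description. Of the transcripts at 15q11 made from the paternal allele in normal cells, also chosen after the values were seen, 7 of 8 were lower in H1299. Of the 8, 6 had no read in H1299 and passed the filter through H460 and A549. The count is a description and is not read against the 4.25% over all genes. SNRPN, which encodes a spliceosomal protein, had no read in H1299, 1704 and 7082 in H460, and 2844 and 1994 in A549 (at least 1478-fold lower, adjusted p = 0.0275). SNURF and SNHG14 overlap SNRPN, so their reads are not independent. Of 30 copies of SNORD116, 18 were tested. All 18 had no read in H1299 and passed the filter through H460 and A549. Of the 18, edgeR called 3 lower and DESeq2 12, which is likewise a description. UBE3A, the neighbouring ubiquitin ligase, was read in H1299 with 8228 and 8013 reads, against 3693 to 9935 in the others (adjusted p = 0.890).

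Genes read in one line and nearly silent in the others were more numerous for H1299 than for either other line. By a rule of at least 1 TPM (the authors' level scaled for transcript length and depth) in every library of one side and at most 3 reads in every library of the other, leaving out chromosome Y, 278 genes were read in H1299 alone (132 coding, 108 lncRNA) and 96 were read in H460 and A549 and not in H1299 (53 coding, 22 lncRNA). The same rule gave 80 and 43 genes for H460, and 103 and 36 for A549. Of the 278 genes, 49 lay on chromosome X and 42 on chromosome 19, and of the 96, 20 lay on chromosome 15. These chromosomes held 777, 1338 and 793 of the 21771 genes tested. The genes on chromosome X include near-identical GAGE copies and those on chromosome 15 SNORD116 copies of a shared host transcript, so they are not independent. Promoters of the 107 coding genes matched among the 278 held a median of 15 CpG dinucleotides in 300 bases (quartiles 10 and 23). The 41 matched coding genes among the 96 held 11 (quartiles 5 and 24), and all 12273 matched coding genes tested held 25 (quartiles 14 and 33). In bulk RNA, fewer cells that express a gene and less RNA in each cell cannot be told apart.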

How the data were processed

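RNA-seq of 6 libraries was analysed, with 1 control and 1 si-MALAT1 library for each cell line, grouped by the cell line label. The methods describe negative controls and si-Control cells without saying which were sequenced, and the labels give the controls no treatment. The authors removed adapters and low-quality bases (the submitters' notes list Trimmomatic), aligned the reads to GRCh38 with HISAT2 2.1.0 and deposited read counts per gene from StringTie (1.3.4b per the submitters' processing notes, and another version in the study's methods) on an NCBI annotation, from a stranded, rRNA-depleted library kit. The processing notes list hg19 beside GRCh38. The counts are whole and not normalized, and the TPM values were scaled by the authors for length and depth. Gene positions came from the deposited annotation. Another 18 columns of per-sample values belong to another study and were not used. Of 46427 genes, 31353 had a read.

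The counts were filtered with filterByExpr, leaving 21771 genes, scaled by TMM and tested with edgeR 4.0.16's quasi-likelihood test (R 4.3.3) with terms for treatment and H1299, at a Benjamini-Hochberg adjusted p under 0.05 over all genes tested. SEs were derived from the F statistic. log2 CPM used a prior count of 2. Control libraries were compared by log2 CPM alone, so control medians are not on the scale of fitted ones where reads are few. A fit with a term for each line gave H1299 against each other line. Low precision at few reads was stated by a floor of 3 reads per library where a group had none, and by exact 95% intervals for 1 to 3 reads, both covering counting error alone. Lists are described by counts and medians. Genes named are members of 18 lists, and the 12 coding genes and 4 lncRNAs in each direction with the widest gap between the H1299 libraries and the others among called genes with a mean of at least 50 reads, without chromosome Y and readthrough genes. Some of these genes are not reported here. Other genes named were chosen after their values were seen. The members and lists were chosen with earlier results of these data known. The tests were checked on simulated counts. Alternatives were RLE and upper quartile scaling, DESeq2 1.42.0, no filter, other line and treatment terms, limma 3.58.1 with the line as a block, added libraries, TPM, other thresholds and leaving out each library.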

Additional observations from a re-analysis of the deposited data

How the results depend on the processing

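Calls in the test of the 2 H1299 libraries against the 4 others rest on treating libraries of a line as replicates. Leaving out any 1 library gave 0 genes in each direction against 923 higher and 925 lower (lowest 0 and highest 0), as did limma voom with the line as a correlated block (0 and 0, with 4300 genes at an unadjusted p under 0.05 and a correlation of 0.764) and the libraries of a line added (0 and 0, with 1844 at an unadjusted p under 0.05 by edgeR), which have fewer samples or 1 unit a line. DESeq2 called 3291 higher and 3835 lower, a fit without treatment 2316 and 1868, and a term for each line 6161 and 5034. Without the filter 645 were higher and 594 lower. RLE size factors (929 and 936), upper quartile scaling (1087 and 893) and a threshold of 1 log2 unit (812 and 861) stayed near the reported counts. In the controls, log2(TPM + 1) gave 1655 higher and 921 lower, a threshold of 2 log2 units 1755 and 1211, and the edgeR fit of 1 library against 2 gave 0 and 0 (1603 genes at an unadjusted p under 0.05). Counts against each other line ranged from 2157 to 3287 higher and 2073 to 2942 lower when 1 library was left out, and were lowest for higher genes without an A549 library (2229 and 2157). None of the 47 single genes recomputed (the 32 with the widest gaps and others of the lists) changed direction under these alternatives, but 39 of them were called with all libraries and lost the call whenever any 1 library was left out, under the line block and with the libraries of a line added. The cause of these shifts was not tested further. The labels give no replicate numbers, and treatment, which matches the libraries across lines, was already a term in the test. Depth limits genes with few reads, whose folds are bounds.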

Other observations

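Genes of the piRNA pathway, which protects the germ line from transposons, were looked up after TDRD9 and TDRD12 had been seen, so their counts are a description. Of 20 genes looked up 14 were tested. By edgeR 5 were higher in H1299, TDRD9 and TDRD12 among them, and 0 lower, and DESeq2 called 6 higher and 1 lower. Because TDRD9 and TDRD12 prompted the lookup, these counts are not read against the 4.24% and 4.25% of all genes tested. Of the 14, 3 had no read outside H1299 and passed the filter on low counts through H1299. GTSF1, a partner of PIWI proteins, had 2604 and 1957 reads in H1299 and 0 in the 4 other libraries (at least 564-fold higher, adjusted p = 0.0454). GPAT2, a mitochondrial acyltransferase of the testis, had 2194 and 1892 reads in H1299 and 0 elsewhere (at least 507-fold higher, adjusted p = 0.0470). HENMT1, which methylates piRNA ends, had 769 and 858 reads in H1299 against 62 to 246 (log2 difference 2.21 ± 0.35, adjusted p = 0.0373). The PIWI genes themselves were near 0: PIWIL1 and PIWIL3 had no read in H1299, PIWIL2 had 32 and 15, and PIWIL4 had 94 and 48.

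The clustered protocadherins, neuronal adhesion molecules encoded on chromosome 5, were also looked up after the chromosome profile had been seen. A window over them was among the highest, so their counts and median follow in part from this choice and are a description. Of 52 tested 28 lay above all other libraries and 1 below, and the median log2 difference was 1.55. Over all genes tested the shares were 28.1% and 22.1%, against which these counts are not read. By edgeR 1 of the 52 (1.92%) was called higher and 0 lower, beside 4.24% and 4.25%. DESeq2 called 14 higher and 1 lower, beside 3291 higher and 3835 lower of all 21771 genes tested.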
